A study of Mus musculus with 8 samples.

Results

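The tumour suppressor p53 is a transcription factor that is held at a low level by the ubiquitin ligase MDM2 and is stabilised by DNA damage and other stress. It binds a short DNA element in its target genes, and the targets arrest the cell cycle, repair DNA, dampen p53 itself or promote cell death. Fibroblasts grown in culture carry an active p53 pathway, and its loss allows mouse embryonic fibroblasts to proliferate without limit. The 10 genes described here are widely used targets of p53, namely Cdkn1a, Btg2, Plk2, Mdm2, Ccng1, Zmat3, Bax, Trp53inp1, Phlda3 and Eda2r. They were chosen by name and found by gene ID among 19493 endogenous genes, and all 10 were among the 16470 genes with enough counts to be tested.

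RNA was sequenced from cultured connective tissue cells, mouse embryonic fibroblasts (MEFs), in 4 wild-type (WT) and 4 Dp1Tyb libraries. Both groups came from littermate E14.5 embryos of a strain labelled C57BL/6J.129P2, which had been backcrossed to C57BL/6JNimr. They were passaged with trypsin and received no other treatment. Dp1Tyb cells carry Dp(16Lipi-Zbtb21)1TybEmcf, a duplication of the stretch of mouse chromosome 16 between Lipi and Zbtb21 that serves as a model of Down syndrome, and WT cells do not. Synthetic ERCC RNAs had been added in a fixed amount per cell before RNA extraction, to ask whether the duplication changes the amount of mRNA and to compare scaling by spike-ins with scaling by the genes themselves. The labels number the replicates 1 to 4 within each genotype and do not say whether each library is a separate embryo, so the p-values measure the spread between these libraries. None of the 10 genes lies on chromosome 16.

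The libraries held 17698900 to 26471758 counts each, and spike-ins took 0.882 to 1.65% of them. Endogenous RNA per spike-in, relative to the geometric mean, ran from 0.713 to 1.19 in WT and from 0.688 to 1.31 in Dp1Tyb. All 8 fibroblast markers were present, with a summed level of 12652 to 21524 counts per 1000000 (CPM) in WT and 14580 to 20886 in Dp1Tyb, while the muscle factor Myod1 and the neuronal Elavl3 were not in the table. Macrophage markers summed to 108 to 139 CPM in WT and 66.8 to 96.9 in Dp1Tyb. All 6 were lower in Dp1Tyb, 5 of them at an unadjusted edgeR p under 0.05 and none after adjustment, and their part in the results below was not tested. WT replicate 2 and Dp1Tyb replicate 1 held 1535 and 1503 CPM of Xist, the RNA of the inactive X chromosome, and at most 0.297 CPM of the Y-linked Ddx3y. The other 6 libraries held at most 3.45 CPM of Xist and at least 131 CPM of Ddx3y. With scaling by the genes themselves (relative scaling), those same 2 libraries stood at opposite ends for most of the p53 targets. Results are therefore also given without them. With spike-in scaling Dp1Tyb replicate 2 was lowest for most targets, with Cdkn1a at 192 CPM there beside 221 in WT replicate 2.

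Per kilobase of exon, with relative scaling, all 10 targets were well expressed. Ccng1 was highest, at 261 ± 56.2 CPM per kilobase (SD, n = 8), which placed it above 99.4% of the tested genes. Cdkn1a followed at 126 ± 37.4, then Mdm2 at 70.6 ± 30.1, Plk2 at 60.4 ± 13.3, Phlda3 at 55.2 ± 6.22 and Bax at 45.7 ± 7.74 (SD, n = 8 each). Trp53inp1, Btg2 and Zmat3 lay at 36.8 ± 11.1, 35.9 ± 11.7 and 31.9 ± 8.83, and Eda2r was lowest at 18.1 ± 6.28 CPM per kilobase (SD, n = 8 each), still above 84.3% of the tested genes. Of the neighbours in this order, Mdm2 and Plk2, Plk2 and Phlda3, Trp53inp1 and Btg2, and Btg2 and Zmat3 differed from each other by less than either SD. The median tested gene lay at 3.82 CPM per kilobase.

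Promoter windows of 250 bases before to 50 bases after a transcription start were available from RefSeq (GRCm38.p6) for 8 of the 10 genes, in 9 windows because Cdkn1a has a pair of starts. No entry was found for Trp53inp1 and Zmat3. They were searched for the p53 consensus element of 10 bases, in which purines, a C and a G around a pair of A or T bases, and pyrimidines follow each other, and which reads the same on both strands. An exact match was present in windows of 4 genes, Cdkn1a, Mdm2, Ccng1 and Bax, and in 8.36% of all 32851 windows. These 4 stretches are shown because they carry the match, and capitals mark the exact elements and, in Cdkn1a, an adjoining element with 1 departure. Whether the match goes with the levels of the genes was not tested.

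Cdkn1a, chr17:29090886-29090967, plus strand: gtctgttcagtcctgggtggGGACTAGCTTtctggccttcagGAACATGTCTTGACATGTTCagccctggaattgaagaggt

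Mdm2, chr10:117710915-117710964, minus strand: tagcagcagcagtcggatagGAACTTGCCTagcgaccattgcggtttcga

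Ccng1, chr11:40755442-40755491, minus strand: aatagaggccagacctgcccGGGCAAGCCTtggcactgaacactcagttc

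Bax, chr7:45467070-45467119, minus strand: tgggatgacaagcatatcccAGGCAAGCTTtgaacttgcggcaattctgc

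p53 binds as a tetramer to a pair of such elements. In Cdkn1a the 20 capital letters at chr17:29090928-29090947, 51 to 32 bases upstream of the start, form a pair with no spacer and 1 departure from the consensus. The upstream element of the same stretch and the first part of this run form an exact pair at chr17:29090906-29090937 with a spacer of 12 bases. Departures were allowed only outside the central C, A or T bases and G of an element, and elements that depart in that core were not counted. By this rule a pair with at most 1 departure and a spacer of up to 13 bases was found in 0.417% of all windows. Among the 9 windows it was found only in that of Cdkn1a. Bax had pairs with 2 departures, as did 2.12% of all windows when up to 2 were allowed. The windows of Btg2, Eda2r, Phlda3 and Plk2 hold no exact element in these 300 bases, which says nothing of elements elsewhere in the genes.

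**Figure D1:**
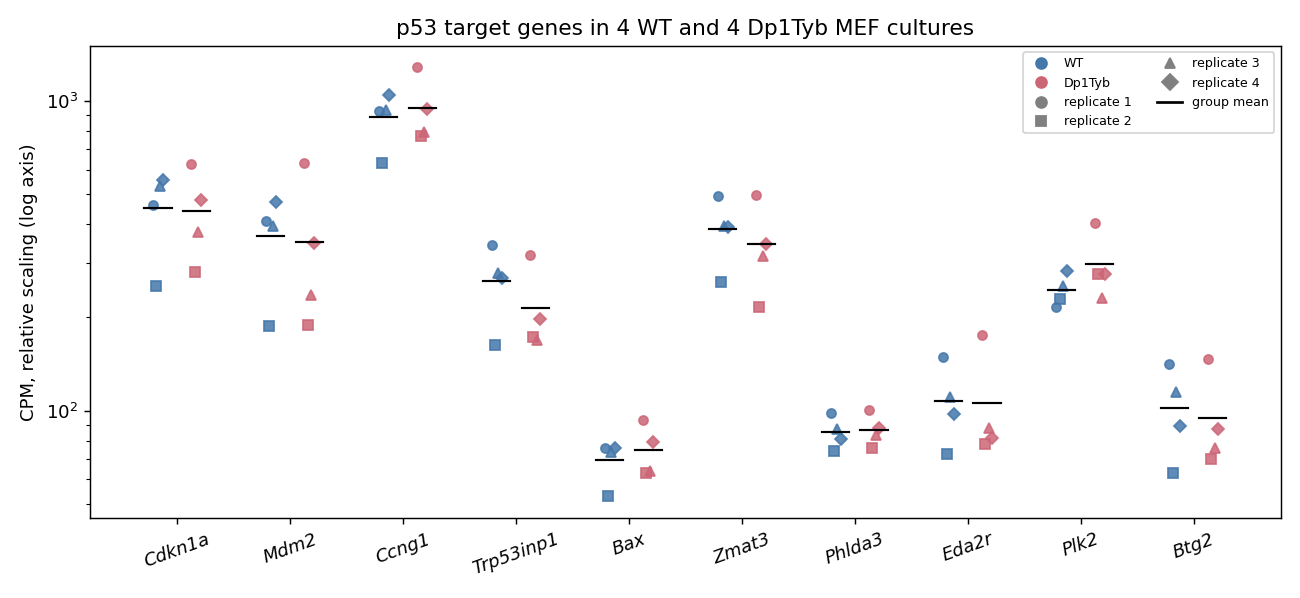
Expression of the 10 p53 target genes in each library, as CPM with relative scaling on a log axis, with WT in blue, Dp1Tyb in red, a marker shape for each replicate number and a black line at each group mean. The genotypes overlap for every gene, Dp1Tyb replicate 1 is the highest library for 9 genes and WT replicate 2 the lowest for 8.

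Among the genes that halt or slow the cell cycle, none differed between genotypes beyond the spread between libraries. Cdkn1a (chr17:29090976-29100727 in GRCm38) encodes p21, the inhibitor of cyclin-dependent kinases through which p53 arrests cells. With relative scaling, which uses TMM factors over the endogenous genes, Cdkn1a stood at 462, 253, 531 and 557 CPM in WT replicates 1 to 4 and at 629, 281, 377 and 479 CPM in Dp1Tyb replicates 1 to 4. The groups overlapped, with the highest value in Dp1Tyb replicate 1 and the lowest in WT replicate 2. From here on, CPM and the order of libraries are with relative scaling unless stated otherwise. Its log2 fold change, Dp1Tyb over WT, was -0.03 ± 0.29 (SE) with relative scaling and 0.13 ± 0.32 (SE) with spike-in scaling, where WT averaged 447 ± 187 CPM (SD, n = 4) and Dp1Tyb 490 ± 248 CPM (SD, n = 4). On the fold scale the 95% intervals of edgeR ran from 0.630 to 1.52 and from 0.711 to 1.70. A stretch of 273 bases of Cdkn1a exons is shared with AC167363.2, a gene on the opposite strand, and the strand option of the counting is not given in the sources used here.

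Btg2 (chr1:134075170-134079120) encodes an antiproliferative protein that binds the deadenylase complex of mRNA decay. It held 141, 62.7, 115 and 89.5 CPM in WT replicates 1 to 4 and 146, 69.9, 75.7 and 87.1 CPM in Dp1Tyb replicates 1 to 4. The same libraries marked both ends as for Cdkn1a, and the log2 fold change was -0.10 ± 0.28 (SE) with relative and 0.03 ± 0.32 (SE) with spike-in scaling.

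Plk2 (chr13:110395046-110400844), a polo-like kinase that acts in centriole duplication, had the largest log2 fold change above 0 of the 10. It held 217, 229, 252 and 283 CPM in WT replicates 1 to 4 and 405, 277, 230 and 277 CPM in Dp1Tyb replicates 1 to 4. Only Dp1Tyb replicate 1 exceeded all WT libraries with relative scaling. The log2 fold change was 0.28 ± 0.17 (SE, edgeR unadjusted p = 0.136, adjusted p = 1.00) with relative scaling and 0.41 ± 0.32 (SE, edgeR unadjusted p = 0.202, adjusted p = 1.00) with spike-in scaling. Without Dp1Tyb replicate 1 it came to 0.09 and 0.14.

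Of the targets that feed back on p53 or bind RNA, none differed between genotypes beyond the spread between libraries, and Mdm2 had the widest spread of all 10. Mdm2 (chr10:117688875-117710758), which encodes the ligase that marks p53 for degradation, held 411, 188, 394 and 471 CPM in WT replicates 1 to 4 and 631, 189, 237 and 348 CPM in Dp1Tyb replicates 1 to 4. Its highest library exceeded its lowest by 3.36 times, and its SD within genotypes, 0.68 on the log2 scale, was larger than that of 96.5% of the tested genes, whose median was 0.25. The groups overlapped, and the log2 fold change was -0.06 ± 0.38 (SE) with relative and 0.10 ± 0.32 (SE) with spike-in scaling.

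Ccng1 (chr11:40748552-40755311) encodes cyclin G1, which recruits a phosphatase to MDM2. It held 931, 631, 935 and 1049 CPM in WT replicates 1 to 4 and 1287, 769, 797 and 943 CPM in Dp1Tyb replicates 1 to 4. Dp1Tyb replicate 1 was above, and the other 3 Dp1Tyb libraries were within, the WT range. The log2 fold change was 0.10 ± 0.20 (SE) with relative and 0.23 ± 0.32 (SE) with spike-in scaling.

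Zmat3 (chr3:32334792-32366014), a zinc finger protein that binds RNA, held 493, 261, 396 and 391 CPM in WT replicates 1 to 4 and 498, 217, 317 and 346 CPM in Dp1Tyb replicates 1 to 4. With relative scaling it was the only target with its lowest value in Dp1Tyb replicate 2, and the groups overlapped. With spike-in scaling other targets also had theirs in that library, such as Ccng1 at 525 CPM. The log2 fold change was -0.16 ± 0.25 (SE) with relative and -0.02 ± 0.32 (SE) with spike-in scaling.

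Among the genes of cell death and survival, Bax and Phlda3 varied less between libraries than Trp53inp1 and Eda2r, and none differed between genotypes beyond that spread. Bax (chr7:45461697-45466898), whose protein permeabilises the outer mitochondrial membrane, held 75.8, 52.9, 73.4 and 75.4 CPM in WT replicates 1 to 4 and 93.2, 62.8, 63.8 and 78.9 CPM in Dp1Tyb replicates 1 to 4. Dp1Tyb replicates 1 and 4 lay above all WT libraries. Its log2 fold change was 0.11 ± 0.16 (SE) with relative and 0.23 ± 0.32 (SE) with spike-in scaling. Its exons share 192 bases with Gm45808, a protein-coding gene model on the same strand, so part of its reads may have been split or dropped in counting.

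Trp53inp1 (chr4:11156431-11174379), a stress-induced protein that promotes p53 activity and autophagy, had the lowest log2 fold change of the 10. It held 343, 163, 278 and 268 CPM in WT replicates 1 to 4 and 318, 173, 169 and 198 CPM in Dp1Tyb replicates 1 to 4. WT replicate 1 was its highest library, and 3 of the 4 Dp1Tyb libraries lay below 3 of the 4 WT libraries. Its log2 fold change came to -0.29 ± 0.25 (SE, edgeR unadjusted p = 0.277, adjusted p = 1.00) with relative and -0.18 ± 0.32 (SE, edgeR unadjusted p = 0.579, adjusted p = 1.00) with spike-in scaling.

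Phlda3 (chr1:135766119-135769136), a repressor of the kinase Akt, was the steadiest of the 10, with 74.3 to 98.5 CPM in WT and 75.7 to 101 CPM in Dp1Tyb. With relative scaling its SD within genotypes was 0.17 on the log2 scale, larger than that of only 26.3% of the tested genes. With spike-in scaling that SD was 0.498, larger than that of 70.5% of the tested genes and close to the 0.508 of Plk2. The relative log2 fold change of Phlda3, 0.03 ± 0.12 (SE), had the narrowest 95% interval, from 0.844 to 1.23 on the fold scale. Eda2r (chrX:97333840-97377216), a receptor of the TNF receptor family encoded on the X chromosome, held 149, 72.5, 111 and 97.8 CPM in WT replicates 1 to 4 and 175, 78.2, 87.6 and 81.5 CPM in Dp1Tyb replicates 1 to 4. With relative scaling the libraries with Xist were its lowest, WT replicate 2, and its highest, Dp1Tyb replicate 1. Its log2 fold change was -0.03 ± 0.29 (SE) with relative and 0.09 ± 0.32 (SE) with spike-in scaling.

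Across the 10 genes, then, 0 were called by edgeR at an adjusted p under 0.05 with either scaling, where the calls over all tested genes came to 0.0121% (spike-in scaling) and 0.0182% (relative scaling). Likewise 0 had an unadjusted edgeR p under 0.05, against 1.17% and 4.27% of the tested genes, and DESeq2 called 0, against 0.0122% and 0.392% of the genes with an adjusted p. No gene had all Dp1Tyb libraries above or below all WT libraries, which held for 1.64% (above) and 1.52% (below) of the tested genes with relative scaling, and for 0.285% and 0.14% per spike-in. With spike-in scaling 8 genes had a log2 fold change above 0, with a median of 0.12, where 70.4% of all tested genes did and their median was 0.11. With relative scaling 4 were above 0 and 6 below, with a median of -0.03 beside 0.01 over all tested genes.

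**Figure D2:**
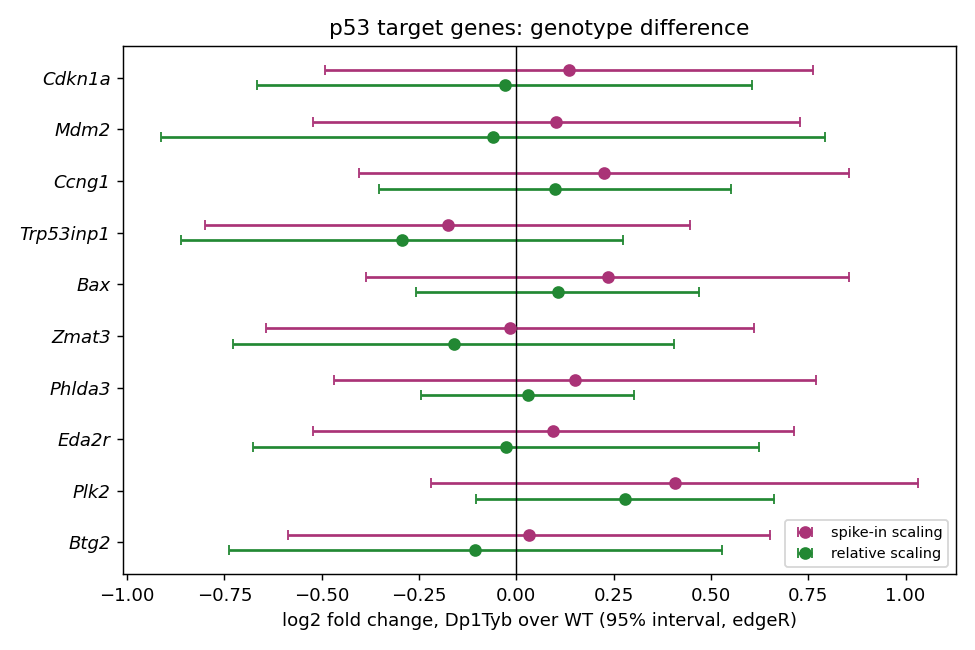
Log2 fold change of each p53 target gene, Dp1Tyb over WT, with its 95% interval from edgeR, for spike-in scaling (purple) and relative scaling (green). Every interval includes 0, and the intervals with relative scaling are narrowest for Phlda3 and widest for Mdm2.

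The result depended on which libraries were compared. Without Dp1Tyb replicate 1, 9 of the 10 genes had a relative log2 fold change below 0, with a median of -0.32. Without WT replicate 2 the count was 8 and the median -0.19. Leaving out Dp1Tyb replicate 2 instead put 9 of the 10 above 0, with a median of 0.11. Over all genes tested in these fits the medians were -0.00035, 0.020 and -0.0023, in the same order. In all of these fits 0 of the 10 were called by edgeR after adjustment, and at most 1 had an unadjusted p under 0.05. The shares of all tested genes on each side of 0, called or at an unadjusted p under 0.05 are not given for these fits.

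Among the 6 libraries with Ddx3y, 3 of each genotype, 9 of the 10 genes had a log2 fold change below 0 with relative scaling, with a median of -0.49, where 49.9% of all genes tested in these libraries were below 0 and their median was 0.00. This comparison was chosen after the data had been seen. It leaves out the library with the highest relative level of 9 genes in Dp1Tyb and the one with the lowest of 8 genes in WT. The lowest values were -0.72 ± 0.21 (SE, edgeR unadjusted p = 0.00676, adjusted p = 0.228) for Mdm2 and -0.72 ± 0.13 (SE, edgeR unadjusted p = 0.000418, adjusted p = 0.0784) for Trp53inp1. In total 6 genes had an unadjusted edgeR p under 0.05, Cdkn1a, Mdm2, Trp53inp1, Zmat3, Eda2r and Btg2, against 13.5% of the genes tested, and 0 passed after adjustment, against 0.109%. With relative scaling all 3 Dp1Tyb libraries lay below all 3 WT libraries for Mdm2, Trp53inp1, Zmat3, Eda2r and Btg2, as for 9.77% of the tested genes, and with spike-in scaling they did so for 0 of the 10, beside 1.34%. Ccng1, Bax and Phlda3 had log2 fold changes of -0.21, -0.13 and -0.11 there, and Plk2 one of 0.06. With spike-in scaling 9 of the 10 were below 0 in these 6 libraries, with a median of -0.43, as were 50.2% of the genes tested. There 0 had an unadjusted edgeR p under 0.05, where 1.92% of the genes did, and 0 were called, where 0.0303% were. When all 8 libraries were kept and the presence of Xist was a term of the fit, the medians of the 10 genes were -0.06 with relative and 0.05 with spike-in scaling. Over all tested genes those medians were 0.0014 and 0.10. In that fit 0 of the 10 had an unadjusted edgeR p under 0.05, and the share of all tested genes is not given. The 6 macrophage markers were also all below 0 in these libraries, with a median of -0.63 with relative and -0.70 with spike-in scaling. With relative scaling 3 of them had an unadjusted edgeR p under 0.05, and Cd68, a lysosomal protein of macrophages, was called (log2 fold change -1.06 ± 0.12 SE, edgeR adjusted p = 0.0289). With spike-in scaling 1 had an unadjusted edgeR p under 0.05 and 0 were called. Over all 8 libraries the macrophage markers were lower as well, while the median of the 10 targets was -0.03 with relative scaling, and the part of the macrophage markers or of the cell cycle genes described below in the values of the 6 libraries was not tested. The presence of Xist cannot be told apart from the choice of libraries here.

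The levels of most of the 10 genes moved together from library to library, and Plk2 did so only in part. In WT replicate 1 Plk2 was at its lowest, with a deviation of -0.30 from its mean on the log2 scale, while 9 genes were above theirs. In Dp1Tyb replicate 1 all 10 were above their mean over the 8 libraries, by a median of 0.54 on the log2 scale. In WT replicate 2 all 10 were below, with a median deviation of -0.49, and in Dp1Tyb replicate 3 all 10 were below with a median of -0.19. Dp1Tyb replicate 2 had 9 of the 10 below its mean, with a median of -0.39, and the other 4 libraries lay between 0.05 and 0.26. Trp53 mRNA itself ran from 93.8 to 126 CPM in WT and from 106 to 130 CPM in Dp1Tyb, with a relative log2 fold change of 0.13 ± 0.11 (SE, edgeR unadjusted p = 0.300, adjusted p = 1.00). Its highest library was 1.38 times its lowest, beside 1.36 times for Phlda3. Trp53 was highest in Dp1Tyb replicate 1 and lowest in WT replicate 1, and its Pearson's r with Cdkn1a over the 8 libraries was 0.56.

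**Figure D3:**
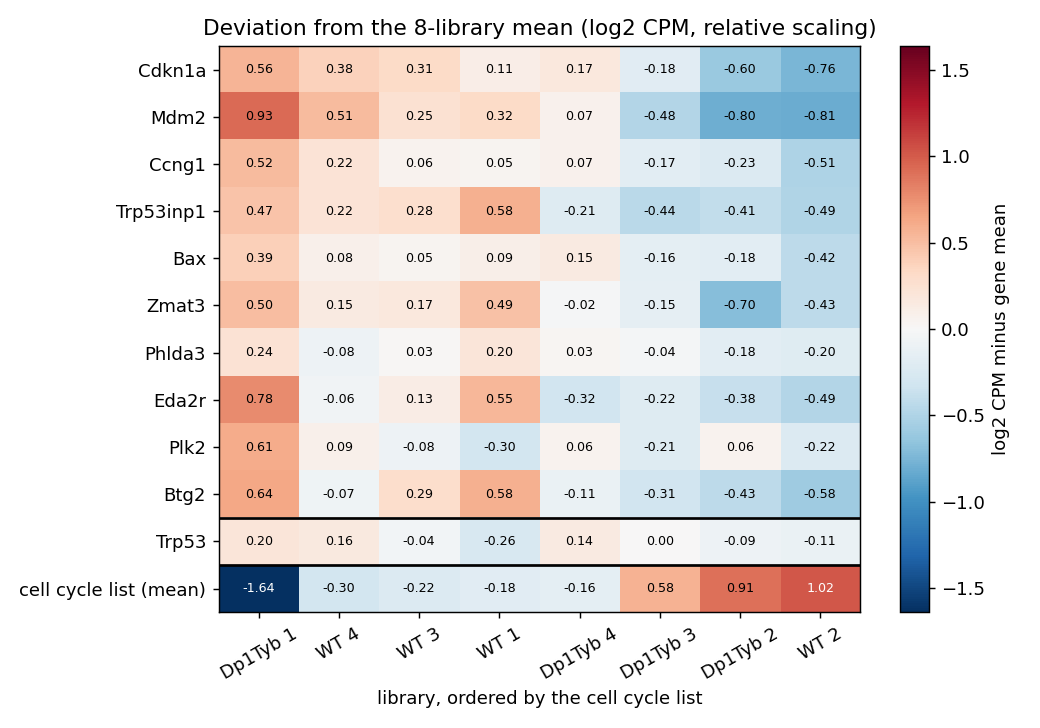
Deviation of each p53 target gene, of Trp53 and of the mean of 16 cell cycle genes from their mean over the 8 libraries, as log2 CPM with relative scaling, with libraries ordered by the cell cycle genes. The target genes run from red in Dp1Tyb replicate 1, where their median is 0.54, to blue in WT replicate 2, where it is -0.49, the cell cycle row runs the other way from -1.64 to 1.02, and Trp53 stays between -0.26 and 0.20.

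Correlations over the 8 libraries were computed for the 45 pairs of genes, on log2(CPM + 0.5) with relative scaling. All 45 values of Pearson's r were above 0, with a median of 0.81, and 35 pairs passed 0.05 by r after Benjamini-Hochberg adjustment over the 45 in two-sided exact permutation tests, 27 by Spearman's rho. The lowest r that passed was 0.76, and 4.55% of all 135622215 pairs of tested genes had an r at least that high, while 49.9% had an r above 0. No such share is given for rho, so the count of 27 cannot be set against other pairs. Cdkn1a and Mdm2 had r = 0.963 (exact permutation p = 0.000223, adjusted p = 0.00201) and rho = 0.929 (exact permutation p = 0.00223, adjusted p = 0.0143), with r = 0.950 without the 2 libraries farthest from the median of Cdkn1a. The highest r was 0.975, between Ccng1 and Bax (exact permutation p = 0.000446, adjusted p = 0.00335), with rho = 0.881 (exact permutation p = 0.00724, adjusted p = 0.0217) and r = 0.893 without the 2 farthest libraries.

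The 9 pairs with Plk2 had r from 0.29 to 0.73 and none passed after adjustment, whereas 35 of the 36 pairs without Plk2 did, with a median r of 0.87. Whether the pairs with Plk2 differ from the others was not tested. When each pair lost the 2 libraries farthest from the median of its first gene, all 45 values stayed above 0, with a median of 0.73. The pairs with Plk2 then overlapped the others, at 0.09 to 0.79 beside 0.35 to 0.96, and the highest were those with Cdkn1a (0.79), Mdm2 (0.74) and Trp53inp1 (0.65). With values centred within genotype 37 pairs passed, and with spike-in scaling, where the RNA per spike-in of a library enters every gene, 45 did. The count fell to 16 without Dp1Tyb replicate 1, to 18 without WT replicate 2 and to 23 without Dp1Tyb replicate 2. Within the 6 libraries with Ddx3y the median r was 0.70 and 39 of the 45 values were above 0, but the lowest was -0.71 and 0 pairs passed after adjustment. The share of all pairs of tested genes is not given for any of these alternatives. Their counts therefore cannot be set against other genes.

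Among all 16469 other tested genes, the median r with Cdkn1a was 0.02 and 2.12% of genes had an r above 0.9. Mdm2 ranked 39 in this order, Ccng1 129, Bax 214 and Zmat3 490, while Btg2, Trp53inp1, Phlda3 and Eda2r ranked 1038, 1053, 1440 and 1732 and Plk2 3700. These are descriptions over 8 libraries, and all genes of a library share its scaling and depth. Of 30 further p53 targets, 25 had an r above 0 with Cdkn1a, with a median of 0.58, where 51.3% of all tested genes were above 0. The death receptor gene Tnfrsf10b had the highest, 0.979, and Ckap2, which encodes a spindle protein and is expressed in dividing cells, the lowest, -0.92. The 6 family relatives of the targets that are compared below had a median r with Cdkn1a of 0.69, with 4 above 0 and 2 below. Among these relatives Bcl2l1 was highest at 0.960 and Mdm4 lowest at -0.59. A high r with Cdkn1a was thus not limited to the listed targets.

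p53 and p21 lower the expression of many cell cycle genes through the DREAM repressor complex. The 16 such genes on the list used here, from the kinase genes Cdk1 and Plk1 to the proliferation marker Mki67, all had an r below 0 with Cdkn1a, with a median of -0.90. Their mean log2 CPM was lowest in Dp1Tyb replicate 1, 1.64 under the mean of the 8 libraries, and highest in WT replicate 2, at 1.02 above it. Mki67 held 272, 706, 310 and 294 CPM in WT replicates 1 to 4 and 76.3, 571, 504 and 288 CPM in Dp1Tyb replicates 1 to 4. In bulk samples fewer dividing cells and less of these RNAs per cell cannot be told apart.

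The relation of each target gene to the mean of these cell cycle genes was examined after the data had been seen, as a family of 10 relations. All 10 had r below 0, from -0.96 for Ccng1 and Mdm2 to -0.73 for Plk2, and all 10 passed 0.05 after adjustment over the family in two-sided exact permutation tests. Many other genes did so too: of the 16454 tested genes outside the cell cycle list, 11.9% had an r below 0 at an unadjusted exact p under 0.05, and 26% had one of either sign. With the exact p adjusted over all of these genes 5 of the 10 passed, Cdkn1a, Mdm2, Ccng1, Bax and Btg2, as did 9.24% of the genes in either direction. For Cdkn1a r was -0.91 (exact permutation p = 4.96e-05, adjusted p = 0.000372), rho was -0.98 (exact permutation p = 0.000397, adjusted p = 0.00198) and r was -0.97 without WT replicate 2 and Dp1Tyb replicate 1, the 2 libraries farthest from the median. For Mdm2 r was -0.96 (exact permutation p = 7.44e-05, adjusted p = 0.000372), rho was -0.98 (exact permutation p = 0.000397, adjusted p = 0.00198) and r without those libraries was -0.98. For Plk2 r was -0.73 (exact permutation p = 0.0451, adjusted p = 0.0451), rho was -0.55 (exact permutation p = 0.171, adjusted p = 0.171) and r without those libraries was 0.02, so that its relation rested on them. By rho 8 of the 10 passed, all but Phlda3 and Plk2. The share of all tested genes by rho is not given, so this count cannot be set against other genes.

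The libraries left out are also those with Xist. Within the other 6 the relation passed after adjustment for 4 genes, Cdkn1a, Mdm2, Ccng1 and Zmat3, with r from -0.87 to -0.98 (exact permutation tests, adjusted p from 0.0139 to 0.0417). An r at or below -0.87 there was found for 5.08% of the tested genes. At an unadjusted exact p under 0.05 the count was 5 of the 10, beside 8.67% of the tested genes, and after adjustment over all tested genes it was 0, as for all genes. Eda2r and Phlda3 had r of -0.57 and -0.61 there and did not pass. With values centred within genotype all 10 passed over the 8 libraries, and without Dp1Tyb replicate 1 the count was 6. The share of all tested genes is not given for either setting, so these counts cannot be set against other genes. With spike-in scaling 0 of the 10 passed, also before adjustment, where 0.571% of the tested genes had an r below 0 at an unadjusted exact p under 0.05. All 10 still had r below 0 there, from -0.67 for Mdm2 to -0.35 for Phlda3, as had 63.1% of the tested genes. A lower r than theirs was found for 1.09% of the tested genes in the case of Mdm2, 2.90% for Cdkn1a and 21.3% for Phlda3, and for 1.84 to 8.34% in the case of the other 7.

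**Figure D4:**
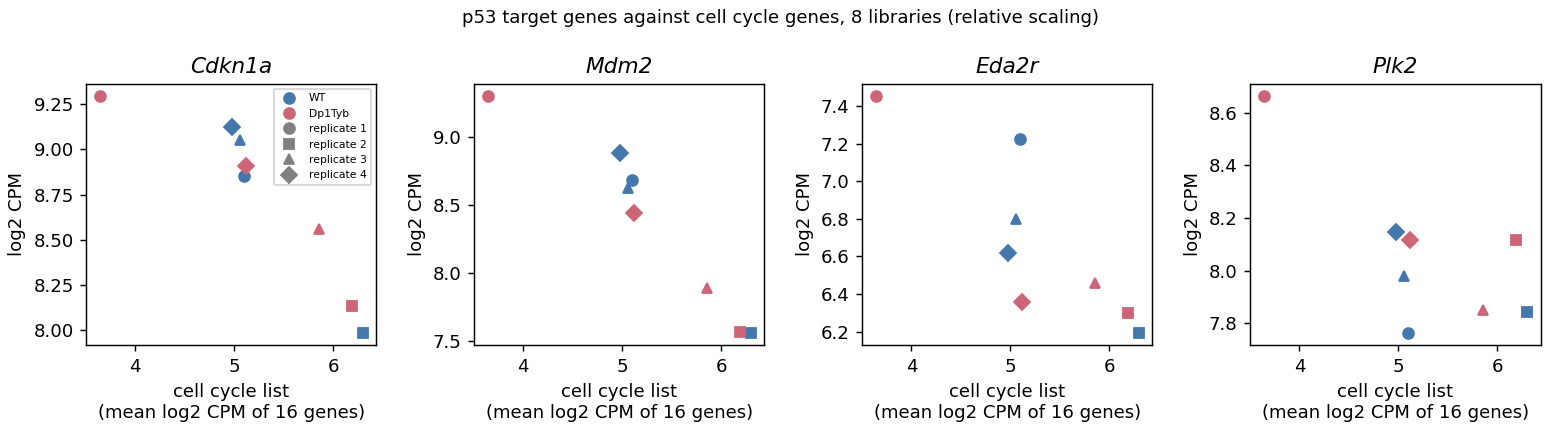
Log2 CPM of Cdkn1a, Mdm2, Eda2r and Plk2 against the mean log2 CPM of 16 cell cycle genes, both with relative scaling, with one point per library, WT in blue, Dp1Tyb in red and a marker shape for each replicate number. Points of both genotypes lie along a falling line for Cdkn1a (r = -0.91) and Mdm2 (r = -0.96), more loosely for Eda2r (r = -0.85), and for Plk2 (r = -0.73) the slope rests on the outer libraries.

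To set the targets against close relatives within a library, the log2 ratio of 6 of them to a relative of the same family was compared between genotypes. Cdkn1a exceeded Cdkn1b, which encodes the related inhibitor p27, by 3.18 ± 0.60 (SD, n = 4) in the WT libraries and 3.42 ± 0.71 (SD, n = 4) in the Dp1Tyb libraries, as ratios of counts and not of length-scaled levels. Mdm2 exceeded Mdm4, its partner in restraining p53, by 1.66 ± 0.74 (SD, n = 4) in the WT libraries and 1.62 ± 0.83 (SD, n = 4) in the Dp1Tyb libraries. Ratios of Ccng1 to Ccng2, Bax to the survival gene Bcl2l1, Plk2 to Plk3 and Btg2 to Btg1 differed between genotypes by 0.13, 0.04, 0.08 and -0.01. Of the 6 differences 0 passed a two-sided exact permutation test over 70 assignments (p from 0.286 to 0.971, Benjamini-Hochberg adjusted p = 0.971 for all 6), a test that can give 0.0286 at the smallest. The relatives varied in part with their partners: Bcl2l1, whose protein holds Bax in check, ran from 66.2 to 107 CPM in WT and from 68.1 to 147 in Dp1Tyb, while Mdm4 stayed between 92.5 and 128 CPM.

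Other genes of the pathway were read from the same fits. Of the 30 further p53 targets edgeR called 0 with either scaling, as did DESeq2, and 1 of the 30 had an unadjusted p under 0.05 with relative scaling, against 4.27% of all tested genes. That gene was Rrm2b, a ribonucleotide reductase subunit for DNA repair, with 15.05 to 16.80 CPM in WT and 17.999 to 19.26 CPM in Dp1Tyb. All 4 Dp1Tyb libraries were above all 4 WT libraries with relative scaling, as for 1.64% of the tested genes, but with spike-in scaling the groups overlapped and 3 of the 4 were. The log2 fold change was 0.24 ± 0.10 (SE, edgeR unadjusted p = 0.0426, adjusted p = 1.00) with relative and 0.35 ± 0.34 (SE) with spike-in scaling. The list as a whole had 15 genes above and 15 below 0 with relative scaling and 23 above with spike-in scaling, with medians of -0.01 and 0.10. Sesn1, Bbc3 and Sfn, a stress-induced regulator of growth signalling, a trigger of cell death and a checkpoint protein, had relative log2 fold changes of -0.28, -0.31 and 0.43 and did not pass.

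Of 18 genes for p53, its family and its regulators, 17 were tested and Trp73 was not in the table. edgeR and DESeq2 called 0, and only Trp63, a relative of p53 that marks epithelial stem cells, had an unadjusted p under 0.05 with relative scaling (log2 fold change 0.70 ± 0.28 SE, edgeR unadjusted p = 0.0305, adjusted p = 1.00), at no more than 1.10 CPM in any library. Cdkn2a, which encodes the p53 activator ARF as well as p16, held 4.47 to 8.09 CPM in WT and 5.72 to 9.63 CPM in Dp1Tyb. Rpl11, a ribosomal protein that can bind MDM2, had a relative log2 fold change of 0.18 ± 0.15 (SE) and did not pass.

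None of the 16 cell cycle genes was called by edgeR or DESeq2 or had an unadjusted edgeR p under 0.05, with 8 above and 8 below 0 with relative scaling and log2 fold changes from -0.15 for Foxm1 to 0.15 for Plk1. In the 6 libraries with Ddx3y all 16 were above 0 with relative scaling, with a median of 0.85 and 15 at an unadjusted edgeR p under 0.05, against 13.5% of all genes tested there. Of the 30 further p53 targets 23 were below 0, with a median of -0.24 and 10 at an unadjusted edgeR p under 0.05. With spike-in scaling the medians were 0.73 and -0.25, and 2 of the 16 and 0 of the 30 had an unadjusted edgeR p under 0.05, against 1.92% of the genes tested. With either scaling edgeR called 0 of either list. Of 9 senescence genes, Cdkn2b, the inhibitor p15 that is induced by TGF-beta, was at 35.8, 31.4, 28.5 and 23.1 CPM in WT replicates 1 to 4 and at 49.2, 44.4, 40.3 and 38.0 CPM in Dp1Tyb replicates 1 to 4. These groups did not overlap, as for 1.64% of the tested genes in this direction, whereas with spike-in scaling WT replicate 1, at 42.1 CPM, exceeded Dp1Tyb replicates 2 and 3, at 30.3 and 42.06 CPM. The log2 fold change was 0.53 ± 0.15 (SE, edgeR unadjusted p = 0.00496, adjusted p = 0.876) with relative and 0.63 ± 0.32 (SE, edgeR unadjusted p = 0.0512, adjusted p = 1.00) with spike-in scaling. Over the 8 libraries 0 of the 9 were called by edgeR or DESeq2. Glb1, the lysosomal enzyme behind the senescence stain, and the protease gene Mmp3 had relative log2 fold changes of 0.16 ± 0.11 and 0.41 ± 0.47 (SE).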

How the data were processed

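The authors added ERCC spike-ins to a fixed number of cells in Trizol, made stranded mRNA libraries, trimmed adapters with Trim Galore, aligned paired reads to GRCm38 and the spike-ins with TopHat2 2.0.12, discarded multi-aligned reads and counted genes with HTSeq. The deposited values used here are raw counts per gene, with no normalisation, and the strand option and annotation release are not given in the sources used here. The authors' normalised table and their DESeq2 table of fold changes and p-values were not used.

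Libraries were scaled either to the 63 spike-ins, by median-of-ratios factors, or to the endogenous genes, by TMM (relative scaling). After filterByExpr, edgeR 4.0.16 (R 4.3.3) fitted genotype by the two-sided quasi-likelihood test over 16470 genes, with Benjamini-Hochberg adjustment and calls at 0.05. The SE of a log2 fold change is its size divided by the root of the test statistic. DESeq2 1.42.0 was an alternative. Log2 values per library used CPM plus 0.5. Total counts were 17698900 to 26471758, and counts of same-genotype libraries differed with a chi-square of 10.4 to 95.7 per degree of freedom, so replicate error exceeded counting error and no library was a duplicate. Positions and exon lengths came from the GRCm38 annotation. The fits were tested on simulated data.

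The target genes, lists and tests were chosen with earlier results of these data known. Named genes were the 10 targets, their 6 relatives, Trp53, up to 4 genes of each list with the smallest relative p, and Xist and Ddx3y. Outside this rule, Ckap2, Tnfrsf10b and Cd68 were named after their values were seen, and Cdk1 as an example of the cell cycle list. Genes absent from the table or sharing exon bases with a target were named as such. The comparisons of the 6 libraries with Ddx3y, the Xist term and the relation to the cell cycle genes were added after the data had been seen. Marker lists for macrophages, endothelium, muscle, epithelium and neural cells were summed: endothelial markers reached 33.0 to 56.1 CPM in WT and 31.6 to 78.7 in Dp1Tyb, and muscle, epithelial and neural markers at most 36.9, 14.8 and 50.1 CPM in WT and 47.7, 11.3 and 52.9 in Dp1Tyb.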

Additional observations from a re-analysis of the deposited data

Results flagged for a closer look

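In groups of 4 libraries, a value was singled out when its gap to the nearest other library took more of the group's whole range than Dixon's 95% critical value. Of 52 groups examined 3 were singled out, and chance does so for about 1 in 20 groups. Bax was at 52.9 CPM in WT replicate 2 with relative scaling, far under the other 3 WT libraries. The log2 ratio of Bax to Bcl2l1 was -0.32 in the same library, above the other 3. Eda2r was at 175 CPM in Dp1Tyb replicate 1 with relative scaling, above the other 3 Dp1Tyb libraries. These 2 libraries are those with Xist, and they hold the highest and the lowest levels of the cell cycle genes, and the part of either in these values was not tested.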

How the results depend on the processing

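No p53 target gene was called under any alternative tried: DESeq2, no count filter, at least 10 counts in every library, an adjusted p under 0.01, other scaling factors, leaving out a library, the replicate block, the 6 libraries with Ddx3y or Xist as a term. Of these alternatives, the share of all tested genes called is given only for DESeq2 and the 6 libraries with Ddx3y. The sign of most fold changes was not fixed, and the cause was not tested. With spike-in scaling, leaving out 1 library gave log2 fold changes from -0.14 to 0.41 for Cdkn1a, -0.41 to 0.41 for Mdm2, -0.022 to 0.46 for Ccng1, -0.51 to 0.11 for Trp53inp1, -0.31 to 0.26 for Zmat3, -0.36 to 0.44 for Eda2r and -0.33 to 0.38 for Btg2. With relative scaling the ranges were -0.25 to 0.14 for Cdkn1a, -0.50 to 0.15 for Mdm2, -0.083 to 0.19 for Ccng1, -0.018 to 0.18 for Bax, -0.39 to 0.0071 for Zmat3, -0.050 to 0.11 for Phlda3, -0.38 to 0.18 for Eda2r and -0.39 to 0.10 for Btg2. Plk2 stayed above 0 in all of these fits (0.09 to 0.60), as did Bax and Phlda3 with spike-in scaling, and Trp53inp1 stayed below 0 with relative scaling. Ratios to relatives ranged from -0.069 to 0.48 for Cdkn1a, -0.41 to 0.23 for Mdm2, -0.052 to 0.13 for Bax, -0.058 to 0.19 for Plk2 and -0.12 to 0.16 for Btg2. The pairs of genes that passed as correlated numbered 16 to 39 of 45 without 1 library and 0 in the 6 libraries with Ddx3y, where 6 points limit the test. No share of all pairs is given for these counts.

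In those 6 libraries the spike-in log2 fold changes were -0.36 for Cdkn1a, -0.65 for Mdm2, -0.19 for Ccng1, -0.10 for Bax, -0.093 for Phlda3, -0.54 for Eda2r and -0.54 for Btg2, and the relative ones were -0.21 for Ccng1, -0.13 for Bax and -0.11 for Phlda3. With Xist as a term the spike-in values were -0.026 for Mdm2, -0.024 for Eda2r and -0.031 for Btg2. TMM over the spike-ins gave 0.026 for Zmat3 and upper-quartile factors -0.011 for Phlda3.

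Deviations of same-numbered libraries from their genotype means correlated with r of 0.38, 0.61, -0.03 and 0.39 for replicates 1 to 4, and WT replicate 3 correlated best with Dp1Tyb replicate 4 (0.36). Replicates 1, 2 and 4 of WT did correlate best with their own number, a hint of pairing from the data that the labels do not give, and since not every pair exceeded 0.1 the numbers were not taken to pair the samples. With the replicate number as a block 0 of the 10 genes were called with either scaling, and the spike-in values of Mdm2 and Btg2 became -0.041 and -0.0090. The block lowered the relative SE of all 10, from 0.254 to 0.0933 for Zmat3 and from 0.291 to 0.115 for Eda2r, and the smallest unadjusted edgeR p of the 10 was then 0.0623, for Trp53inp1 (adjusted p = 0.541). The other p53 pathway genes at an unadjusted edgeR p under 0.05 went from 3 to 6 with relative and from 0 to 3 with spike-in scaling, and 0 were called. The share of all tested genes under the block is not given, so this rise cannot be set against other genes.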
